A study of Saccharomyces cerevisiae with 12 samples.

Results

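The nuclear genes for proteins of the mitochondrial ribosome were followed in budding yeast through a change from rich to minimal lactate medium, in a wild-type strain and in a strain without CHO2. They were found by name: a gene was taken when its standard name was MRPL, MRPS, MRP or RSM followed only by a number. Of 6685 genes listed, 67 had such a name. Among them 38 encode proteins of the large subunit and 28 encode proteins of the small subunit. The remaining gene, MRP8, was assigned to neither subunit and is described on its own. Counts below are therefore over 66 genes unless MRP8 is named. Subunits were taken from a gene list written for this report, not from family names. MRP8 has no ribosomal protein family name in RefSeq, and neither does RSM22, which was kept in the small subunit. All 67 were above the filter on low values.

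Mitochondrial ribosomes translate the messages that mitochondria make from their own genome, most of which code for membrane subunits of the respiratory chain and the ATP synthase. Apart from Var1, the proteins of this ribosome are encoded in the nucleus, made in the cytosol and imported. Some belong to families shared with bacterial ribosomes and others occur only in mitochondrial ribosomes. In yeast the RNA-binding protein Puf3 binds many of their messages and controls their decay and translation. In the gene list written for this report, 24 of the large-subunit genes were placed in families shared with bacteria and 14 in mitochondrial ones. In the small subunit the numbers are 17 and 11. RSM22, a methyltransferase-like protein, has no family name in RefSeq and was counted with the mitochondrial ones.

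Poly-A RNA was measured in 12 libraries, 2 for each of 6 groups. The wild-type (WT) strain was CEN.PK of mating type a, and the mutant, called cho2, carried cho2-delta::KanMX in the same background. CHO2 encodes the methyltransferase that begins the conversion of phosphatidylethanolamine to phosphatidylcholine. Each strain was sampled in YPL (1% yeast extract, 2% peptone, 2% lactate) at an A600 of 1.0. The cells were then washed into SL (nitrogen base at 0.17%, free of amino acids, with ammonium sulfate at 0.5% and lactate at 2%) and sampled again after 1 h and 3 h. Lactate was thus the carbon source in all 6 groups. The series calls each pair biological replicates without stating that the cultures were separate, so the spread behind the p-values may be technical. Values are the deposited normalised reads, and in bulk RNA a lower share of a message cannot be told apart from a higher share of others.

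Recovered reads ranged from 3.17 M (M for mega) in WT library 2 at 3 h to 12.5 M. The median gene of cho2 library 2 at 3 h had a log2 deviation of -0.34 from the mean of the 12 libraries, so results at 3 h are given with and without it where they differ. CHO2 stood at 1571 to 4065 normalised reads in the 6 WT libraries and at 3.77 to 9.19 in the 6 cho2 libraries. Of the mating-type genes examined, the a-cell receptor gene STE2 stood at 692 to 1549 normalised reads and the alpha pheromone gene MF(ALPHA)1 at 3.03 to 34.9. SAG1, also an alpha-cell gene, stood at 407 to 1023.

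In YPL the mitochondrial ribosomal protein genes spanned a 9.21-fold range of levels. Per kilobase of coding length, their median in WT was 3065 normalised reads, with quartiles at 2581 and 3752. The subunits had medians of 3204 (large) and 3008 (small). MRPS12, the uS12 protein of the decoding centre, was highest at 7403 ± 469 normalised reads per kb (SD, n = 2), followed by MRPL51 of the large subunit (family mL43) at 6754 ± 906. The library values of this pair overlapped. RSM22 was lowest at 804 ± 67.8 normalised reads per kb, with no overlap with MRPS5 (family uS5), the next in order, at 1663 ± 24.1. In cho2 the order was close to that in WT, with a Pearson r of 0.979 and a Spearman rho of 0.964 between the log2 levels per kb of the 66 genes, which share libraries and coding lengths within a strain. Shorter genes had higher levels per kb (r = -0.54 over the 66 genes), a description in which length enters both measures.

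**Figure D1:**
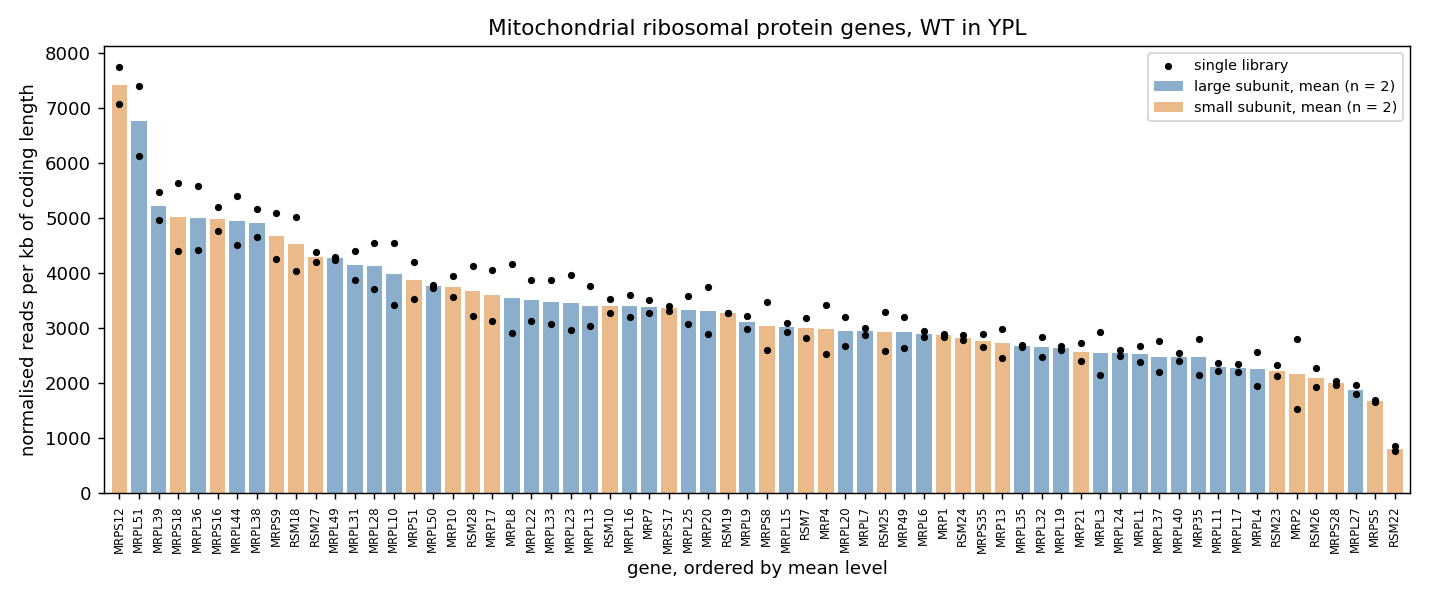
Level of 66 mitochondrial ribosomal protein genes in WT cells in YPL, in normalised reads per kb of coding length (bars, mean of 2 libraries; points, single libraries), ordered from high to low and coloured by subunit. MRPS12 at 7403 and MRPL51 at 6754 stand highest, RSM22 at 804 lowest, and both subunits are spread over the whole order.

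All of these genes were lower 1 h after the switch to SL. In WT 66 of 66 fell, where 23.8% of all 6546 tested genes were lower (limma, Benjamini-Hochberg adjusted p under 0.05). The median log2 change was -2.35, against 0.18 for all tested genes, and a median of 19.6% of the YPL level was left. In cho2 66 of 66 fell as well, with 24.6% of all genes lower, and the median log2 change was -2.28 against 0.05 for all genes. As a share of the library, the 66 genes made up 1.40% and 1.55% of normalised reads in WT in YPL, and 0.290% and 0.298% at 1 h. In cho2 they made up 1.40% and 1.43% in YPL and 0.293% and 0.282% at 1 h.

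MRPL4, the uL29 protein of the large subunit, changed most. It stood at 1855 and 2456 normalised reads in WT in YPL, at 154 and 195 at 1 h and at 70.9 and 34.2 at 3 h. In cho2 the values were 1710.3 and 1554 in YPL, 95.4 and 113 at 1 h, and 49.9 and 34.7 at 3 h. The 3 times were fully separated in both strains. At 1 h 8.09% of the WT level in YPL was left, a log2 change of -3.62 ± 0.27 (SE, limma adjusted p = 2.8e-11), and in cho2 the change was -3.96 ± 0.27 (adjusted p = 8.7e-12). At 3 h 2.44% and 2.59% were left in WT and cho2. The lowest value, in the shallow second WT library at 3 h, rests on 12 recovered reads.

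MRPL44, of the mitochondrial family mL53 and the member whose annotation holds an intron, changed least at 1 h in WT. It stood at 1339 and 1601 normalised reads in YPL and at 502 and 510.3 at 1 h, so 34.4% was left, a log2 change of -1.53 ± 0.19 (limma adjusted p = 2.3e-07). In cho2 the smallest fall was that of MRPL16, the uL16 protein, from 2338 and 2473 to 919.8 and 851 normalised reads (log2 -1.44 ± 0.18, adjusted p = 4.5e-07). MRPS12, the highest gene per kb, went from 3267 and 3574 normalised reads in WT in YPL to 1111 and 1106 at 1 h. Its log2 change of -1.62 ± 0.16 (adjusted p = 8.6e-09) was the smallest fall of the small subunit. Even these mildest cases were separated from YPL by more than 1 log2 unit over their 95% intervals.

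The large-subunit genes had a median log2 change of -2.43 at 1 h in WT and the small-subunit genes one of -2.29. In cho2 these medians were -2.42 and -2.24. In the large subunit the changes ran from -3.62 (MRPL4) to -1.53 (MRPL44), and in the small subunit from -2.97 (MRPS17, family uS17) to -1.62 (MRPS12). The ranges overlapped, and no test between the subunits was made. Genes of families shared with bacteria had a median of -2.27 and those of mitochondrial families one of -2.51 in WT. The summed reads of the small subunit divided by those of the large subunit gave 0.818 and 0.817 in the WT libraries in YPL, 0.865 and 0.848 at 1 h, and 0.872 and 0.943 at 3 h. In cho2 the ratios were 0.815 and 0.826, then 0.864 and 0.861, then 0.867 and 0.884. The ratio was thus higher in every SL library than in every YPL library. The ratio was also taken without the 4 members highest in summed reads (MRPS12, RSM28, MRP51 and MRPL10). Of these only MRPL10 is of the large subunit, so the removal takes more from the small-subunit sum. The group means then ran from 0.681 to 0.736 with the YPL groups at 0.707 (WT) and 0.701 (cho2), and the YPL and SL libraries overlapped. With 2 libraries a group an exact two-sided permutation test of such a ratio cannot go below a p of 0.333, and none was used.

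**Figure D2:**
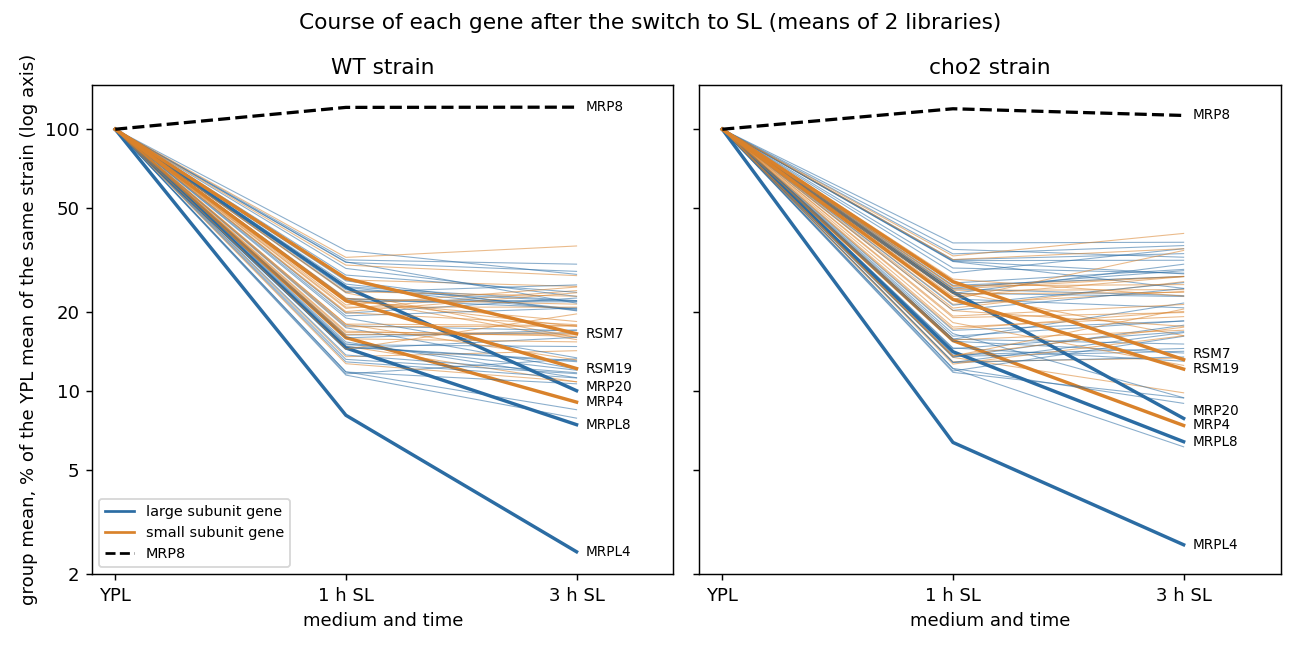
Group means of each gene as a percentage of the YPL mean of the same strain, on a log axis, in WT (left) and cho2 (right); blue, large subunit, orange, small subunit, dashed, MRP8, thick lines, the 6 genes that fell again from 1 h to 3 h in both strains in every alternative. MRPL4 ends at 2.44% and 2.59%, while MRP8 stays above 100% in both strains.

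WT and cho2 share no libraries. Their log2 changes at 1 h correlated with r = 0.961 and rho = 0.955 over the 66 genes, given as a description. Genes of greater coding length tended to fall further (r = -0.41 between length and the WT change). Genes with higher levels per kb in cho2 in YPL tended to fall less in WT (r = 0.39). Level per kb is divided by coding length, so this description is not separate from the one by length. A direct test of the strain difference in the response to SL, the interaction at 1 h, called 0 of 66 genes, where 3.61% of all genes passed. No gene reached even an unadjusted p under 0.05, and edgeR on recovered reads also called 0. The estimates ran from -0.35 (MRPL4) to 0.37 (MRPL39, family bL33), and the 95% intervals of 64 genes stayed within 1 log2 unit of no difference.

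Cytosolic ribosomal protein genes also fell at 1 h, and most of them rose again by 3 h. In WT 137 of 137 fell at 1 h with a median log2 change of -2.78, and in cho2 135 of 137 with a median of -1.82. The interaction at 1 h called 54 of the 137, where 3.61% of all genes passed. All 54 had the smaller fall in cho2, and the median over the 137 was 0.91. Part of this lies in YPL, where all 137 estimates were lower in cho2 (median log2 difference -0.41), though 0 passed. At 1 h the median difference was 0.51. From 1 h to 3 h 130 of 137 rose and 1 fell in WT (median log2 change 1.15), and 84 rose and 4 fell in cho2 (median 0.64). The cytosolic genes made up 1.53% and 1.10% of WT reads at 1 h and 3.25% and 2.96% at 3 h. The mitochondrial genes stayed at 0.253% and 0.278% in WT at 3 h, and at 0.336% and 0.282% in cho2. The ratio of cytosolic to mitochondrial ribosomal protein reads, which does not depend on how libraries are scaled, was 3.68 to 6.44 in the 4 libraries at 1 h and 9.57 to 12.9 in the 4 libraries at 3 h. In YPL it was 4.72 to 7.10. The groups at 1 h and 3 h did not overlap in either strain, and no test between the gene sets was made.

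**Figure D3:**
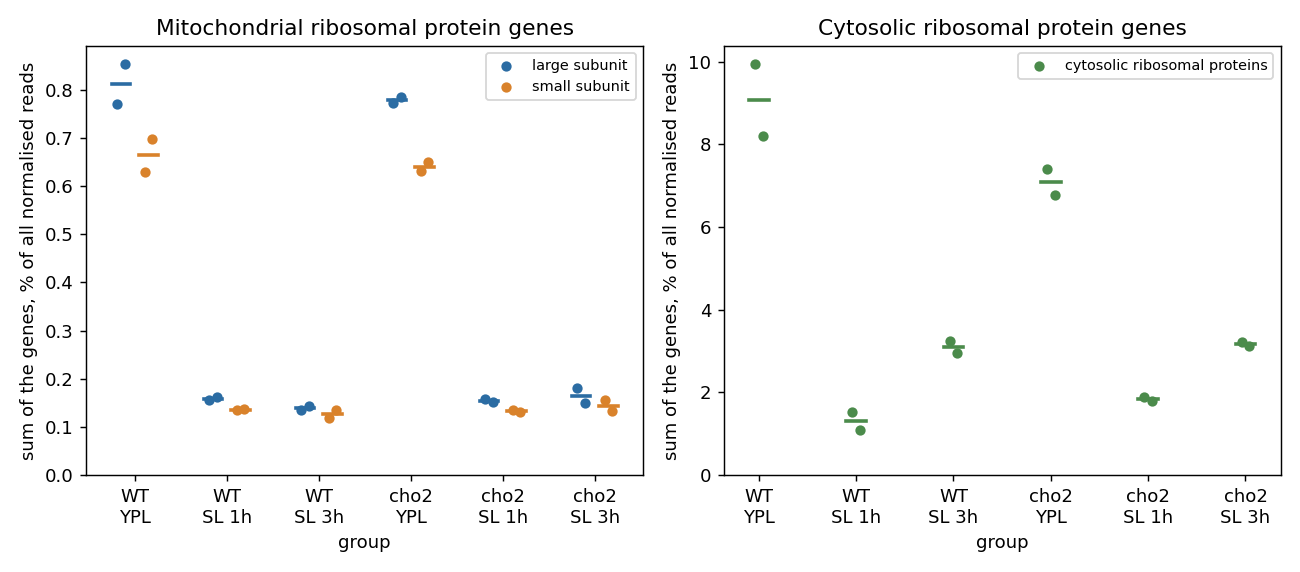
Summed normalised reads of mitochondrial ribosomal protein genes by subunit (left) and of cytosolic ribosomal protein genes (right) as a percentage of each library (points, libraries; lines, means of 2). The mitochondrial share drops from 1.40% to 1.55% in YPL to between 0.253% and 0.336% in the SL libraries, and the cytosolic share climbs again from 1 h to 3 h.

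Relative to YPL, 66 of 66 mitochondrial ribosomal protein genes were still lower at 3 h in WT (30.8% of all genes lower) and 66 of 66 in cho2 (37% lower). The median log2 changes were -2.54 in WT and -2.31 in cho2, against -0.08 and -0.18 for all genes. A median of 17.1% of the YPL level was left in WT and of 20.4% in cho2. At the ends of the range stood MRPL4 (log2 -5.41 ± 0.27 in WT, limma adjusted p = 2.9e-14) and MRPS12 (-1.48 ± 0.16, adjusted p = 4.6e-08).

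Between 1 h and 3 h most of these genes showed no change that passed the test. In WT 0 rose and 11 fell, where 11.1% of all genes rose and 25.5% fell, so the share that fell was no larger than among all genes. The median log2 change was -0.16, against -0.21 for all genes. In cho2 2 rose and 11 fell, where 7.99% and 23.8% of all genes did, with medians of 0.04 and -0.16. TMM scaling raised the median of all genes by 0.19 log2 units in both strains, and with it 6 rose and 8 fell in WT and 16 rose and 9 fell in cho2. The share of all genes called is not given for this or the following alternatives. Without that share, these counts cannot be read as particular to the members. Leaving out a library changes the mean of its own group and the shared estimate of the spread. A WT estimate therefore stays the same when a cho2 library is left out, and only its p-value moves. Without the second cho2 library at 3 h the cho2 counts were 18 up and 8 down. Without the first they were 2 up and 18 down. When cho2 library 1 at 1 h was left out, 7 genes passed. The WT count of 11 became 6 or 7 without either WT library at 1 h or without the second at 3 h, and 19 (1 up, 18 down) without either cho2 library at 3 h. The risers in cho2 were RSM10, the uS10 protein, and RSM26, of the mitochondrial family mS42. RSM10 went from 429 and 433 normalised reads at 1 h to 745 and 581 at 3 h (log2 0.61 ± 0.17, limma adjusted p = 0.0095), and RSM26 from 198 and 198 to 310.3 and 289 (0.59 ± 0.18, adjusted p = 0.013). In WT their changes were 0.23 ± 0.17 and 0.45 ± 0.18, which did not pass (adjusted p = 0.31 and 0.054).

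The genes that fell a second time were largely the same in both strains. Of the 11 in each strain 9 were shared, which is 81.8% of each list, while for all genes the 1052 shared made up 63% of the WT list and 67.7% of the cho2 list. The 9 were MRPL4, MRP20, MRPL8 and MRPL40 of the large subunit and MRP4, RSM7, RSM19, MRP51 and MRP1 of the small subunit. All but MRP1 (family mS43) belong to families shared with bacteria, as do 33 of the other 57 genes. MRPL23 (uL13) and MRPL25 (mL59) fell in WT alone, and MRPL11 (uL10) and MRPS9 (uS9) in cho2 alone, by the threshold only. The changes from 1 h to 3 h in WT and cho2 correlated with r = 0.859 and rho = 0.752 over the 66 genes. The interaction over this interval called 0 of 66 (2.11% of all genes), with 1 gene at an unadjusted p under 0.05 and 0 by edgeR. Without the second cho2 library at 3 h it called 3, MRPL32, MRPL49 and MRPS17.

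**Figure D4:**
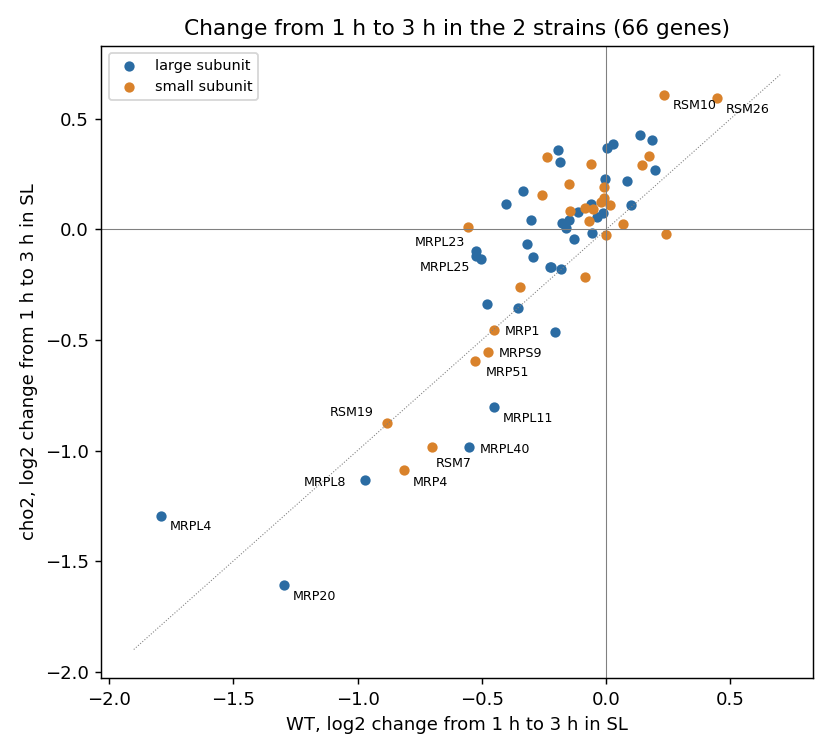
Log2 change from 1 h to 3 h in SL in WT (x axis) and cho2 (y axis) for 66 genes, blue for the large and orange for the small subunit; genes that passed in either strain are named, and the dotted line marks equal change. Most genes lie near 0, while MRPL4 and MRP20 lie lowest in both strains.

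MRP20 is the uL23 protein, which in bacterial ribosomes sits at the exit of the tunnel through which the new protein leaves. It had 570.1 and 736 normalised reads at 1 h in WT and 261 and 265 at 3 h, and in cho2 655 and 627 at 1 h and 237 and 184 at 3 h. The values at 3 h lay below those at 1 h in all 4 libraries. The log2 changes were -1.30 ± 0.19 in WT (limma adjusted p = 7.0e-06) and -1.61 ± 0.19 in cho2 (adjusted p = 4.1e-07). MRP20 had not been among the strongest early responders, with 24.9% of the YPL level left at 1 h in WT and 10.04% at 3 h.

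MRPL4, whose uL29 family is also found at the tunnel exit in bacteria, had further log2 changes of -1.79 ± 0.27 in WT (limma adjusted p = 1.1e-05) and -1.30 ± 0.27 in cho2 (adjusted p = 0.00056). MRPL8, the bL17 protein, went from 339.8 and 401 normalised reads to 206 and 171 in WT, and from 332 and 364 to 159.7 and 156 in cho2. Its log2 changes were -0.97 ± 0.19 and -1.13 ± 0.19 (adjusted p = 0.00031 and 6.0e-05). MRPL40, the uL24 protein, had 255 and 253 normalised reads at 1 h and 194 and 154 at 3 h in WT (log2 -0.55 ± 0.18, adjusted p = 0.02), and 250.0 and 219.8 against 128 and 109 in cho2 (-0.98 ± 0.18, adjusted p = 0.00018). Its WT call was lost in 4 alternatives. MRPL22, of the uL22 family that also lines the tunnel, did not pass, with log2 changes of -0.01 ± 0.20 in WT and 0.23 ± 0.20 in cho2 (adjusted p = 0.98 and 0.41).

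In the small subunit, MRP4 (uS2) went from 508 and 621 normalised reads at 1 h to 293 and 348 at 3 h in WT, and from 456 and 494 to 258 and 192 in cho2. The log2 changes were -0.81 ± 0.19 and -1.09 ± 0.19 (limma adjusted p = 0.0019 and 0.00011). RSM7 (uS7, an organiser of the head of the small subunit in bacteria) went from 589 and 609 to 383 and 353 in WT and from 463 and 487 to 240.5 and 238 in cho2. Its changes were -0.70 ± 0.16 and -0.99 ± 0.16. RSM19 (uS19) changed by -0.88 ± 0.20 in each strain, from 207 and 192 to 131 and 88.3 normalised reads in WT and from 163 and 178 to 87.8 and 97.3 in cho2. In all these genes the 3 h libraries lay below the 1 h libraries of the same strain. RSM19 lies directly upstream of MRPS12 on the same strand, and MRPS12 showed log2 changes of 0.14 ± 0.16 and 0.29 ± 0.16 over the same interval (adjusted p = 0.52 and 0.19). MRP51 (bS1) and MRP1 had small changes, at -0.53 ± 0.20 and -0.45 ± 0.17 in WT, and each lost its call in several alternatives in both strains. The other 6 (MRPL4, MRP20, MRPL8, MRP4, RSM7 and RSM19) passed in both strains in every alternative run.

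Between the strains few differences in the level of these genes passed the test. In YPL 0 of 66 passed between cho2 and WT (0.412% of all genes did), with 0 at an unadjusted p under 0.05 and 0 by edgeR. The estimates leaned to lower values in cho2, with a median of -0.09 log2 units against 0.01 for all genes. In 28 of 66 both cho2 libraries lay below both WT libraries, and in 0 above. Of all genes 21.6% lay below and 24.7% above. The 95% intervals of all 66 lay between -0.94 and 0.61 log2 units. At 1 h 0 of 66 passed (9.23% of all genes), and 2 had an unadjusted p under 0.05. The nearest was MRPL4, at 154 and 195 normalised reads in WT and 95.4 and 113 in cho2 (log2 -0.74 ± 0.27, limma adjusted p = 0.091), which edgeR called. It also passed without either WT library at 3 h, and MRP1 and MRPL7 passed (lower in cho2) without either cho2 library at 3 h. The intervals of the other 65 stayed within 1 log2 unit of no difference.

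At 3 h 1 of 66 passed, where 2.83% of all genes were lower in cho2 and 0.611% higher. RSM7 had 383 and 353 normalised reads in WT and 240.5 and 238 in cho2 (log2 -0.62 ± 0.16, limma adjusted p = 0.037). This count turned on single libraries. The share of all genes called is not given for the fits below, so their counts cannot be read as particular to the members. Omitting a library of another group leaves the 3 h estimates as they are and changes only the estimate of the spread. Without the second cho2 library at 3 h 12 passed: RSM7 was lower and 11 were higher (MRPL22, MRPL24, MRPL25, MRPL32, MRPL49, MRPL50, MRPL51, MRPS16, MRPS17, MRPS18 and RSM18). Without the first, 6 passed and all were lower (MRP1, MRP4, MRPL11, MRPL40, RSM23 and RSM7). MRPL51 shows the spread, with 693 and 464 normalised reads in WT and 1157 and 649 in cho2. The second cho2 library lay near the WT values and the first well above them. With only the 3 h groups in the fit, 0 passed, and 0 passed without the first WT library at 3 h or without any single library of WT at 1 h, cho2 in YPL or cho2 at 1 h. Without the second WT library at 3 h only MRPL37 passed, higher in cho2.

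MRP8 showed no change that passed. It stood at 2663 and 2245 normalised reads in WT in YPL, at 2983 and 2964 at 1 h, and at 3009 and 2949 at 3 h. In cho2 it stood at 2783 and 2889, then 3743 and 3049, then 3783 and 2620.0. The SL libraries of WT lay a little above its YPL libraries, while in cho2 the 3 h libraries lay on both sides of the YPL values. At 1 h the log2 changes were 0.28 ± 0.18 in WT and 0.25 ± 0.18 in cho2 (limma adjusted p = 0.18 and 0.26), and MRP8 passed in none of the 11 contrasts. In a few alternatives it passed as a rise, among them 3 h against YPL in cho2 when cho2 library 2 at 3 h was left out (log2 0.42, limma adjusted p = 0.037).

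Mitochondrial ribosomal proteins with other gene names fell too. Of 14 such genes 14 fell at 1 h in each strain, with median log2 changes of -2.27 in WT and -2.20 in cho2. MNP1, the bL12 stalk protein, fell by 3.02 ± 0.21 log2 units in WT (limma adjusted p = 1.3e-11), and EHD3 by 1.58 ± 0.19 (adjusted p = 1.1e-07). IMG1, the bL19 protein, also fell again from 1 h to 3 h. It went from 297 and 356 normalised reads to 138 and 119.7 in WT, and from 262 and 234 to 106 and 83.0 in cho2. The log2 changes were -1.33 ± 0.20 and -1.39 ± 0.20 (adjusted p = 9.3e-06 and 6.7e-06), close to those of MRP20.

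The rest of the mitochondrial translation apparatus fell less evenly at 1 h. Of 9 translation factors 8 fell in WT and 9 in cho2 (medians -2.30 and -2.58). MEF1, the elongation factor that moves the ribosome along, went from 6325 and 7652 normalised reads in WT in YPL to 485 and 434 at 1 h (log2 -3.92 ± 0.17, limma adjusted p = 1.7e-15). TUF1, the elongation factor that delivers charged tRNA, fell by 3.05 ± 0.18 (adjusted p = 6.3e-13). Of 16 genes for tRNA synthetases and tRNA charging 15 fell in WT and 15 in cho2 (medians -1.72 and -1.93). GTF1, a subunit of the amidotransferase that makes mitochondrial glutaminyl-tRNA, rose in WT by 0.67 ± 0.20 (adjusted p = 0.007) and in cho2 changed by 0.46 ± 0.20 (adjusted p = 0.061). It then fell from 1 h to 3 h by 1.11 ± 0.20 and 1.27 ± 0.20.

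Among 16 activators that act on single mitochondrial messages 12 fell in WT and 11 in cho2 (medians -0.98 and -1.24), and 4 and 5 did not pass. MSS51, the activator for COX1, fell by 2.45 ± 0.18 in WT (limma adjusted p = 3.7e-11). Among 8 assembly and rRNA modification genes 6 fell in each strain, with MAM33 at -3.71 ± 0.18 and the RNA helicase gene MSS116 at -2.87 ± 0.19. Of 7 genes for membrane insertion and ribosome-associated factors 6 fell in each strain. MBA1, the membrane receptor of the ribosome, fell by 3.21 ± 0.18 in WT. OXA1, the insertase to which the ribosome delivers its products, fell by 2.20 ± 0.19 at 1 h and again from 1 h to 3 h by 0.84 ± 0.19 in WT and 0.89 ± 0.19 in cho2 (adjusted p = 0.001 and 0.00062). Of 5 genes for mitochondrial transcription and the mitochondrial genome 3 fell and 2 rose in WT. The RNA polymerase gene RPO41 fell by 2.15 ± 0.17 at 1 h, and then rose by 0.78 ± 0.17 in WT and 0.60 ± 0.17 in cho2. Nuclear genes of the respiratory chain and ATP synthase, the machines that the mitochondrial products complete, fell in 33 of 37 cases in WT and 35 of 37 in cho2, with medians of -0.97 and -1.07.

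**Figure D5:**
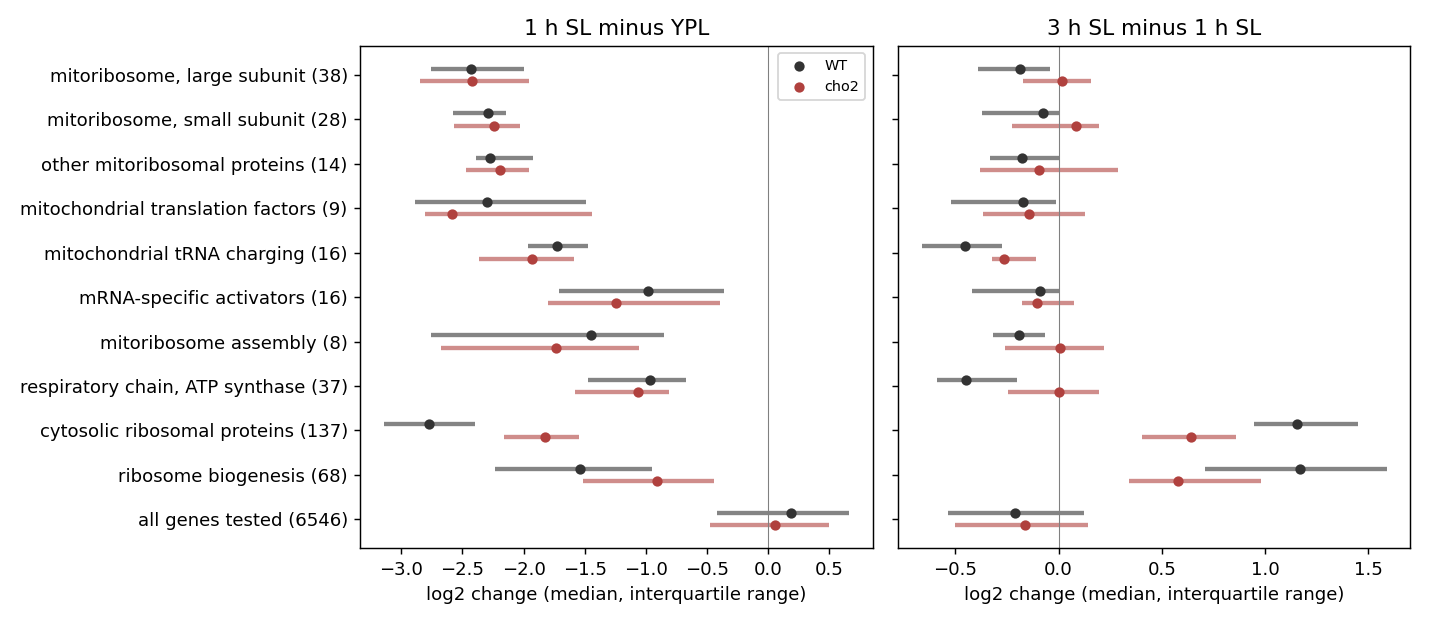
Median (point) and interquartile range (bar) of the log2 changes of gene groups in WT (black) and cho2 (red), from YPL to 1 h (left) and from 1 h to 3 h (right); the number of genes is in parentheses. The medians of both mitoribosomal subunits lie between -2.43 and -2.24 on the left and near 0 on the right, where the cytosolic ribosomal and ribosome biogenesis genes lie above 0.

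Genes for ribosome biogenesis in the nucleus and cytosol fell at 1 h in 63 of 68 cases in WT and 49 of 68 in cho2. They then rose from 1 h to 3 h in 63 and 37 cases, as the cytosolic ribosomal protein genes did. Of the regulators, HAP4, the activating subunit of the Hap complex that drives respiratory genes, went from 5033 and 5581 normalised reads in WT in YPL to 1784 and 1852 at 1 h. Its log2 change was -1.54 ± 0.18 in WT and -1.59 ± 0.18 in cho2 (limma adjusted p = 7.2e-08 and 5.2e-08). PUF3 went from 635 and 844 to 344 and 407 in WT (-0.97 ± 0.21, adjusted p = 0.00031) and changed by -1.20 ± 0.21 in cho2 (adjusted p = 2.8e-05). SFP1, an activator of cytosolic ribosomal protein and biogenesis genes, rose by 0.72 ± 0.18 in WT (adjusted p = 0.0016) and changed by 0.25 ± 0.18 in cho2 (adjusted p = 0.28). These are levels of messages, and the activity of the proteins was not measured.

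The nearest upstream genes of the mitochondrial ribosomal protein genes moved in both directions, in shares near those of all genes. In the RefSeq annotation 38 of the 66 had their nearest upstream gene in divergent orientation, so that both could share a promoter region. At 1 h in WT 10 of these neighbours fell, 13 rose and 15 did not pass, and their median log2 change was 0.04. Of all genes 33.7% rose and 23.8% fell in this comparison. Of 28 upstream neighbours on the same strand 9 fell, 9 rose and 10 did not pass (median 0.08). Among those that fell, RSM19 upstream of MRPS12, is itself a member. MET16, of sulfate assimilation, lies upstream of MRP2 on the same strand and rose by 6.65 ± 0.21 log2 units while MRP2 (family uS14) fell by 2.01 ± 0.23. GCV2, of glycine cleavage, lies divergent from MRPS17 and rose by 1.74. Of the 9 genes that fell again by 3 h in both strains all have a divergent neighbour. From 1 h to 3 h in WT, SHU1 beside MRP4 fell (log2 -0.79 ± 0.26, limma adjusted p = 0.019). YJR115W beside RSM7 rose (1.56 ± 0.28, adjusted p = 0.0001). The other neighbours of the 9 did not pass, with log2 changes from -0.41 (LSM3, beside MRPL4) to 0.25 (SVF1, beside MRP1). Sharing of a promoter was not tested. Among the members 3 (MRP4, MRPL19 and MRPL51) overlap another reading frame of the RefSeq annotation. Whether the counting used strand is not given in the sources used here, so the values of these members are less certain. Listed genes that the annotation did not match could not be checked for overlap.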

How the data were processed

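Per the labels' protocols, each poly-A library came from 4 µg of RNA and a stranded kit. The authors deposited signal values, reads per gene divided by 1 factor per library; the submitters' processing notes name Bowtie, DESeq and build sacCer2. How reads were counted, and whether by strand, is not given in the sources used here. Recovered reads were obtained because 100% of the values in each column divided evenly by 1 step (tolerance 0.01 reads). Names, coding lengths, family names and neighbours came from the RefSeq annotation (R64), which matched 6006 of 6685 genes. Subunits and the split into bacterial and mitochondrial families came from the gene list written for this report. The 679 unmatched genes could not be placed as neighbours.

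Differences were tested with limma 3.58.1 (R 4.3.3) on log2 of value + 1 for the 6546 genes that reached 10 in 2 or more libraries. A single model over the 12 libraries (6 residual degrees of freedom) gave 11 contrasts, each with Benjamini-Hochberg adjustment over all its genes and a threshold of 0.05. A log2 change on this scale understates that of low genes. Alternatives were a pseudocount of 5, no filter, TMM scaling, a block for the replicate number, a fit of only the contrast's groups, edgeR 4.0.16 on recovered reads with the deposited scaling, and each library left out. Leaving out both 3 h libraries numbered 2 was added after the data were seen. The procedure was also run on simulated data in which few genes changed, unlike these data. That run therefore does not show how the tests behave here. Members, lists and contrasts were chosen with earlier results of these data known, so no p over a list is given. The rule let every member be named, with the extremes of each contrast in full, plus up to 4 genes of each list. The subunit of MRP35 was assigned after its absence from the first table was noticed. IMG1, MRPL22 and the genes that fell again by 3 h were singled out after their values were seen. Figures were made with Python 3.11.15 and matplotlib 3.10.9.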

Additional observations from a re-analysis of the deposited data

Results flagged for a closer look

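No mitochondrial ribosomal protein gene was flagged. The cytosolic ribosomal protein genes were, because the strains' responses differed by the interaction test itself. Of all genes 3.61% passed that test at 1 h and 2.11% from 1 h to 3 h. At 1 h 54 of 137 passed (limma, Benjamini-Hochberg adjusted p under 0.05), all with a smaller fall in cho2 than in WT, and the count ran from 48 to 66 under the alternatives computed for this set. From 1 h to 3 h 7 of 137 passed, all with a lower change in cho2 than in WT, and 4 did by edgeR, 20 with TMM scaling and 29 when cho2 library 1 at 3 h was left out. The cause was not tested.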

How the results depend on the processing

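The falls from YPL to 1 h and to 3 h stayed at 66 genes in each strain under every alternative. MRP8 passed as a rise in 4 cases: at 3 h in WT with TMM scaling, at 1 h in cho2 with only the groups of the contrast, and at 3 h in cho2 without its second 3 h library, alone or with that of WT. The strain difference in YPL and the interaction at 1 h stayed at 0. No gene's direction reversed where it was called. The counts from 1 h to 3 h moved. These and the strain counts below are given without the share of all genes called in the same fit. In WT 11 became 7 with only the groups of the contrast and 18 without both 3 h libraries numbered 2, and ran from 6 to 19 with 1 library left out. In cho2 13 became 25 with TMM scaling, 8 with only those groups and 27 without both libraries, and ran from 7 to 26 with 1 left out. The interaction over this interval went from 0 to 6 without both libraries and ran from 0 to 3 with 1 left out. For cho2 against WT at 1 h, 0 became 1 with only those groups and 1 by edgeR (MRPL4 each time), and 5 without both libraries, with 0 to 2 when 1 was left out. At 3 h 1 became 4 with TMM scaling, 0 with only those groups and 15 without both libraries, with 0 to 12 when 1 was left out. Without the 4 highest members, of which only MRPL10 is of the large subunit, the small-to-large ratio changed. It was 0.707, 0.699 and 0.736 in WT (YPL, 1 h, 3 h) and 0.701, 0.681 and 0.698 in cho2. The cause of these moves was not tested. Same-numbered libraries deviated together in 6 of 15 pairs of groups (r over 0.1) and the correlation ran from -0.20 to 0.54. The highest was that of WT in YPL with WT at 1 h, followed by 0.42 for WT with cho2 at 3 h. For cho2 in YPL with cho2 at 1 h it was 0.02. The labels state no pairing, and the numbers were not taken as pairs, though a link between the WT libraries remains possible. With a replicate block WT from 1 h to 3 h gave 14 genes in place of 11. The second WT library at 3 h, with 3.17 M reads, limits low values such as that of MRPL4.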
